A study of Mus musculus with 3 samples.

Results

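The endothelin and nitric oxide genes that set vessel tone were examined in lymphatic endothelial cells sorted from large intestines of mice. They were 9 genes of 24091 in the table, chosen by name but with earlier results of these data known. These were the ligand genes Edn1, Edn2 and Edn3, the receptor genes Ednra and Ednrb, the converting enzyme gene Ece1, and the nitric oxide synthase genes Nos1, Nos2 and Nos3. All 9 were listed. The series holds 1 group of 3 bulk RNA-seq libraries, called replicates 1, 2 and 3, from C57BL/6 mice. The sample labels name no treatment, age or further allele, a word in the names of the deposited tables that no label explains was not used, and the title covers lymphatic capillaries and collecting vessels together. Cells were sorted by markers that included CD31, podoplanin and LYVE1, and no source used here states if each library stands for a mouse of its own. SDs therefore measure the spread between these samples, which may be technical, and p-values hold for these samples only. A p-value here mainly reflects whether the 3 libraries agree in sign. No comparison between conditions could be made, and levels were compared between genes within a library and across the libraries.

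Endothelins are short peptides cut from longer precursors, first by furin-type proteases and then by endothelin-converting enzyme. They act on the receptor ETA, encoded by Ednra and known for contraction of smooth muscle, and on ETB, encoded by Ednrb, which in vascular endothelium is known to trigger nitric oxide release and to clear endothelin. Nitric oxide is made from arginine by the synthases and relaxes muscle through soluble guanylate cyclase and cyclic GMP. In lymphatic vessels, nitric oxide made by the endothelial enzyme, encoded by Nos3, is known to modulate the rhythmic contraction of the collecting vessels.

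The labelled cell type was checked first. TPM is a relative transcript abundance, scaled by transcript length and by the library total. All 11 lymphatic markers reached a TPM of at least 1 in every library, as did 53.4% of all genes. Every marker of the general endothelial, blood endothelial, epithelial, fibroblast, smooth muscle and macrophage lists passed too, so this count does not set the labelled cell type apart. Prox1, which encodes a transcription factor that defines lymphatic endothelium, was low, at 3.27, 4.82 and 2.63 TPM in replicates 1, 2 and 3. The summed TPM of the lymphatic list was 1692, 1771 and 984 in replicates 1, 2 and 3, and that of 10 markers of endothelium in general 1568, 1349 and 973. Markers of other cells were present too. The 10 epithelial markers summed to 15932, 19624 and 20505, far above the lymphatic list, with a list median of 978 against 73.5 TPM. The 8 fibroblast markers summed to 189, 129.8 and 477, and the 9 smooth muscle and pericyte markers to 241, 196 and 418. For the 8 macrophage markers the sums were 248, 173 and 550.0. By these sums, replicate 3 was the lowest of the libraries for lymphatic markers and the highest for epithelial, fibroblast, smooth muscle and macrophage markers. A level below is that of the whole library and does not assign a gene to a cell type, and in bulk samples fewer cells of a type and less RNA per cell cannot be told apart. TPM keeps no depth. Steps in the values of low genes put 1 TPM over 1000 effective bases at about 32.5 fragments in replicate 1, 28.3 in replicate 2 and 25.8 in replicate 3.

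The 3 ligand genes encode close relatives, and the stretch that codes for the mature peptide is shown to make plain what distinguishes them. These are the 63 bases, 21 codons, in exon 2 of each gene, in the GENCODE M21 transcripts of GRCm38 (mm10), written 5′ to 3′ on the plus strand. Capitals mark bases that are not the same in all 3 genes.
Edn1: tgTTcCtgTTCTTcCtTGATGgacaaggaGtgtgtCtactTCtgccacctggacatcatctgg
Edn2: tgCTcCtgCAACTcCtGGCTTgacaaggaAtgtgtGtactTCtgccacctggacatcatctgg
Edn3: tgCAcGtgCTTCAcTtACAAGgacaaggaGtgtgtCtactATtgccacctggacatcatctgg
The stretches lie at chr13:42303649-42303711 for Edn1, chr4:120161951-120162013 for Edn2 and chr2:174761749-174761811 for Edn3. Of the 63 bases, 45 were shared by all 3 genes, and the last 21 were identical. Edn2 shared 53 bases with Edn1, Edn3 shared 50 bases with Edn1, and Edn3 shared 48 with Edn2. Of the 18 bases that differed, 14 fell among the first 21, which code for the amino end of the peptide.

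Edn2 was the most abundant ligand gene in every library. Edn2 (Entrez 13615, chromosome 4, 120161206 to 120167360), which encodes endothelin-2, a peptide first described in the mouse as vasoactive intestinal contractor, was measured at 14.9, 16.5 and 20.04 TPM in replicates 1, 2 and 3, a mean of 17.2 ± 2.61 TPM (SD, n = 3). Edn1 (Entrez 13614, chromosome 13, 42301476 to 42307990), the ligand typical of blood vessel endothelium, was measured at 8.94, 7.55 and 12.6 TPM, a mean of 9.70 ± 2.61 TPM. Edn1 was therefore below Edn2 in each of the 3 libraries, and the ranges of the 2 genes did not overlap. Edn3 (Entrez 13616, chromosome 2, 174760619 to 174784042), known for its part in the migration of enteric neural crest cells and melanocytes through ETB, was measured at 0.856, 1.56 and 1.82 TPM, a mean of 1.41 ± 0.501 TPM. The low value of Edn3 was in replicate 1, the one library in which it stayed under a TPM of 1.

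Within a library, Edn1 made up 36.1%, 29.4% and 36.6% of the summed TPM of the ligand genes, Edn2 60.4%, 64.5% and 58.1%, and Edn3 3.46%, 6.10% and 5.29%, in replicates 1, 2 and 3. Edn2 held the greatest share and Edn3 the smallest in each library, and the sum itself was 24.7, 25.6 and 34.5 TPM. On the log2(TPM + 1) scale, Edn1 minus Edn2 was -0.78 ± 0.22 (SD, n = 3) and below 0 in 3 of 3 libraries. Edn1 minus Edn3 was 2.14 ± 0.36 and Edn2 minus Edn3 was 2.92 ± 0.17, both above 0 in 3 of 3 libraries. Each had p = 0.25 by an exact sign-flip permutation test (two-sided), and with 3 libraries no smaller p exists. Adjusted over the 8 differences examined (Benjamini-Hochberg), this exact p became 0.286. The design cannot reach a p of 0.05, so these differences rest on their size against the spread. The estimated fragments behind the ligand values were 563, 418 and 640 for Edn1, 612, 597 and 666 for Edn2, and 81, 130 and 139 for Edn3.

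**Figure D1:**
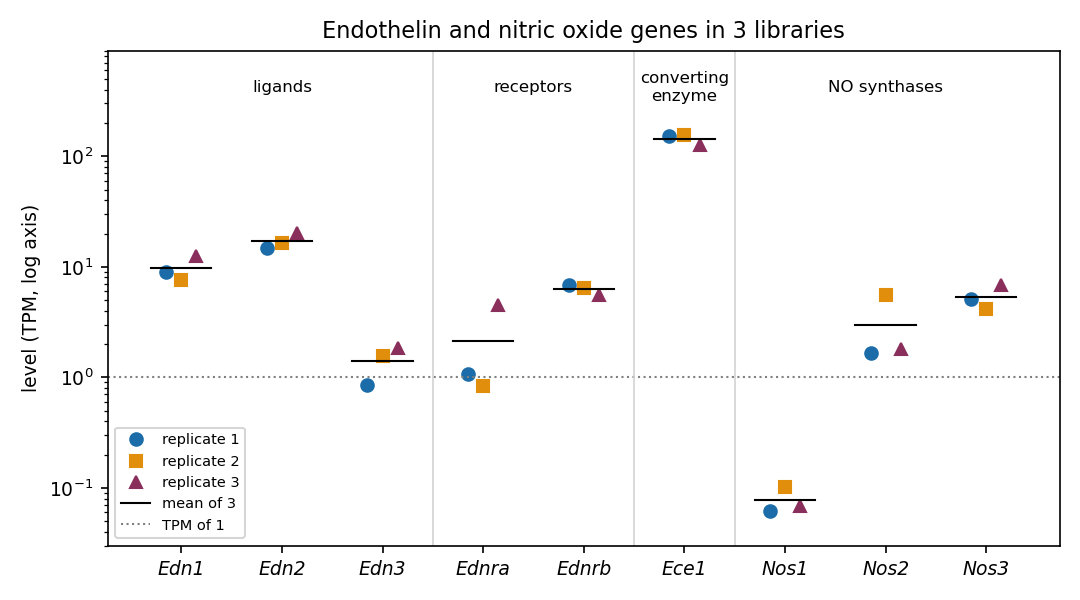
Level of the 9 genes in TPM (log axis) by library, with the mean of 3 libraries as a bar and a dotted line at a TPM of 1. Ece1 stands above all others at 125 to 156 TPM, Nos1 below all others at 0.0623 to 0.102 TPM, and Ednra and Nos2 each have 1 library apart from the other 2.

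The receptor genes differed in how steady they were. Ednrb (Entrez 13618, chromosome 14, 103814615 to 103844508) was measured at 6.88, 6.39 and 5.52 TPM in replicates 1, 2 and 3, a mean of 6.26 ± 0.689 TPM, with a coefficient of variation of 10.99%, the smallest of the 9 genes. Ednra (Entrez 13617, chromosome 8, 77663029 to 77724452) was measured at 1.07, 0.841 and 4.52 TPM, a mean of 2.15 ± 2.06 TPM, with a coefficient of variation of 96.0%, the greatest of the 9. The high value of Ednra was that of replicate 3, and it rested on an estimated 403 fragments, with 120 in replicate 1 and 82 in replicate 2. Without replicate 3 its mean was 0.958 TPM.

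Ednrb was above Ednra in each library, by 1.93, 2.005 and 0.24 on the log2(TPM + 1) scale in replicates 1, 2 and 3. The mean difference was 1.39 ± 0.996 (SD, n = 3), above 0 in 3 of 3 libraries, and the exact permutation test gave p = 0.25, adjusted to 0.286. In TPM, the ratio of Ednrb to Ednra was 6.40, 7.59 and 1.22. Ednrb thus made up 86.5% and 88.4% of the summed receptor TPM in replicates 1 and 2, and 55.0% in replicate 3.

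Ednra was 4.72-fold higher in replicate 3 than in the mean of replicates 1 and 2. In the same comparison of libraries the summed fibroblast markers were 2.99-fold higher, with 8 of 8 markers highest in replicate 3. The macrophage markers were 2.61-fold higher, also with 8 of 8, and the smooth muscle and pericyte markers 1.91-fold higher, with 8 of 9. Neuron and glia markers, of which 1 of 9 passed a TPM of 1 in every library, summed to 10.2, 6.15 and 13.2 TPM in replicates 1, 2 and 3. The summed lymphatic markers in replicate 3 were 0.568 of their mean in the other libraries, and 10 of 11 were lowest there. Among all genes of mean TPM 1 or more, 41.3% were highest and 22.4% lowest in replicate 3. ETA is known from smooth muscle, pericytes and fibroblasts, but the part of these cells in the Ednra value was not tested.

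Ece1 was by far the most abundant of the 9 genes. Ece1 (Entrez 230857, chromosome 4, 137862237 to 137965229), the membrane protease that makes active endothelin from its inactive intermediate, was measured at 152, 156 and 125 TPM in replicates 1, 2 and 3, a mean of 144 ± 16.8 TPM. It stood at percentiles 96.3, 96.2 and 95.2 of all genes of the table in those libraries. The lowest value was in replicate 3, as for 22.4% of genes of mean TPM 1 or more. Ece1 there was 0.812 of the mean of the other libraries. The same ratio was 0.568 for the lymphatic sum and 0.667 for the general endothelial sum. The part of these cells in the Ece1 value was not tested. Ece2, the related converting enzyme gene, was measured at 32.0, 24.0 and 25.1 TPM, a mean of 27.0 ± 4.33 TPM. Ece1 minus Ece2 was 2.38 ± 0.23 on the log2(TPM + 1) scale, above 0 in 3 of 3 libraries, and the exact permutation test gave p = 0.25, adjusted to 0.286. The Ece2 value is uncertain, because 57.5% of its exon bases in GENCODE M21 are shared with a gene on the same strand, Gm49333, that the table does not list by that symbol.

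Of the synthase genes, Nos3 was highest in 2 libraries and Nos2 in the other. Nos3 (Entrez 18127, chromosome 5, 24364816 to 24384474), the endothelial synthase gene, was measured at 5.12, 4.11 and 6.89 TPM in replicates 1, 2 and 3, a mean of 5.38 ± 1.41 TPM. Nos2 (Entrez 18126, chromosome 11, 78920787 to 78960226), the inducible synthase gene known from activated macrophages and from gut epithelium, was measured at 1.65, 5.53 and 1.80 TPM, a mean of 2.99 ± 2.20 TPM. The high Nos2 value was in replicate 2, and without that library the mean was 1.72 TPM. Nos1 (Entrez 18125, chromosome 5, 117866839 to 117958840), the synthase gene of neurons, enteric ones included, was measured at 0.0623, 0.102 and 0.0690 TPM, a mean of 0.0776 ± 0.0211 TPM, which rested on an estimated 20, 29 and 18 fragments. These are few fragments spread over a transcript of 10123 bases, and the order of the libraries for Nos1 is not read from them.

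Nos3 made up 75.0%, 42.2% and 78.7% of the summed synthase TPM in replicates 1, 2 and 3, and Nos2 24.1%, 56.7% and 20.5%. Nos3 minus Nos2 was 1.21, -0.35 and 1.496 on the log2(TPM + 1) scale, a mean of 0.78 ± 0.995 (SD, n = 3), positive in replicates 1 and 3 and negative in replicate 2. This mean was smaller than its SD, and the exact permutation p was 0.5 both before and after adjustment. Without replicate 2 the mean difference was 1.35. Both exceeded Nos1 in every library: Nos3 minus Nos1 was 2.54 ± 0.34 and Nos2 minus Nos1 was 1.76 ± 0.70, and for each the exact permutation test gave p = 0.25, adjusted to 0.286.

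In replicate 2, where Nos2 was highest, the summed macrophage markers were at their lowest, and the epithelial sum of 19624 TPM lay between those of replicates 1 and 3. Of the 10 epithelial markers 4 were highest in replicate 2, Muc2 among them, and 3 lowest, against 41.7% and 14.9% of all genes of mean TPM 1 or more. Nos3 was highest in replicate 3 by 1.49-fold over the mean of the other libraries. The general endothelial sum there was 0.667 of that mean, with 9 of 10 markers lowest in replicate 3. The 10 blood endothelial markers were split, with 5 highest and 4 lowest there. Of all genes of mean TPM 1 or more, 41.3% were highest and 22.4% lowest in replicate 3. The blood endothelial sum was 796, 735 and 920.2 TPM in replicates 1, 2 and 3. Without Car4, singled out after its values were seen (143, 148 and 289 TPM), the sum was 653, 586 and 631 TPM. The 5 highest in replicate 3 were Car4, Flt1, Vwf, Plvap and Ackr1, and the 4 lowest Gpihbp1, Aqp1, Rgcc and Podxl. Plvap was measured at 88.2, 53.4 and 178 TPM, Vwf at 8.20, 5.22 and 18.7 TPM, and Gpihbp1 at 193, 176 and 88.9 TPM. The part of these cell types in either value was not tested. In GENCODE M21 the protein-coding gene Atg9b, on the opposite strand, covers 7.12% of the exon bases of Nos3, and the antisense gene Gm15587 covers 25.2%. Atg9b was listed at 1.09, 1.36 and 0.540 TPM, and the sources used here do not say whether counting used the strand.

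**Figure D2:**
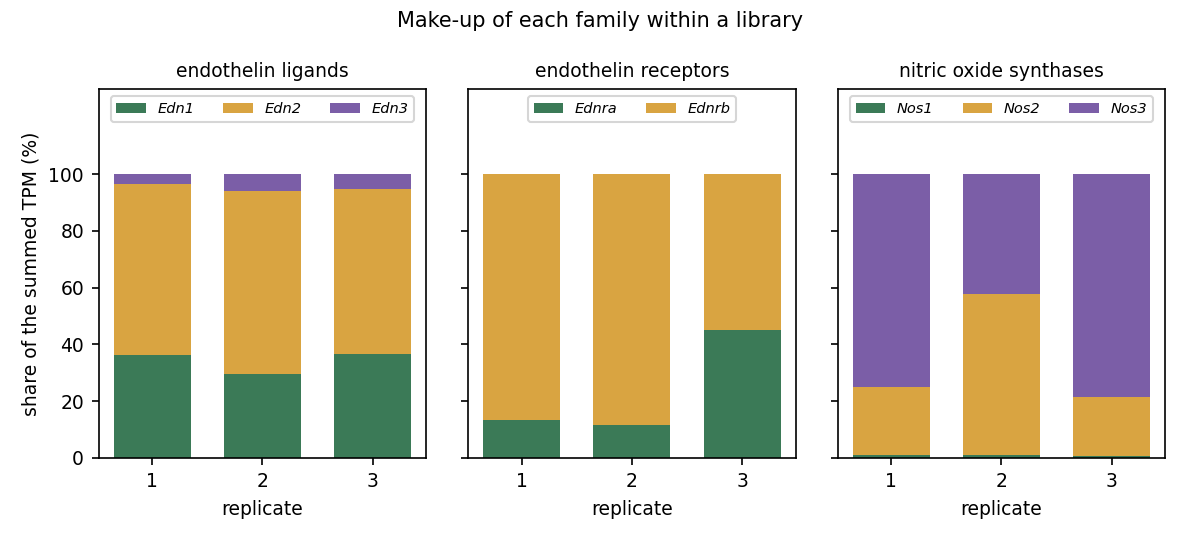
Share of each gene in the summed TPM of its family (%), by library, for ligands, receptors and synthases, with each bar adding to the whole family. Edn2 holds 58.1% to 64.5% of the ligand sum in every library, whereas Ednra reaches 45.0% of the receptor sum in replicate 3 and Nos2 56.7% of the synthase sum in replicate 2.

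Ordered by mean log2(TPM + 1), the 9 genes ran Ece1, Edn2, Edn1, Ednrb, Nos3, Nos2, Ednra, Edn3 and Nos1. Neighbours were taken as separated where their difference within a library had 1 sign in all 3 libraries and a mean above its SD, and 4 of 8 pairs met this. Ece1 exceeded Edn2 by 3.004 ± 0.37 (log2), Edn2 exceeded Edn1 by 0.78 ± 0.22, Edn1 exceeded Ednrb by 0.54 ± 0.46 and Edn3 exceeded Nos1 by 1.14 ± 0.31. The 4 pairs in the middle, from Ednrb to Nos3, Nos3 to Nos2, Nos2 to Ednra and Ednra to Edn3, did not differ beyond their spread. A TPM of at least 1 in every library was reached by 6 of the 9 genes, against 53.4% of all 24091 genes. The 3 that did not were Edn3 and Ednra, each under it in 1 library, and Nos1, under it in all 3.

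The spread between libraries was set against genes of like abundance. A gene was called variable where the SD of its log2(TPM + 1) lay above percentile 95 of its bin of mean expression, which calls 5% of the 13606 genes of mean TPM 1 or more by construction. Of the 8 members tested, 0 were called. Ednra came closest, with an SD of 0.87 against a limit of 0.90, followed by Nos2, with 0.73 against 0.85. With percentile 90, which calls 10% of genes, Ednra and Nos2 were both called.

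Of the 8 members with a mean TPM of 1 or more, 5 were highest in replicate 3 (Edn1, Edn2, Edn3, Ednra and Nos3), against 41.3% of the genes tested. Ednrb was highest in replicate 1, and Ece1 and Nos2 in replicate 2, against 17% and 41.7%. Ednrb and Ece1 were lowest in replicate 3, as were 22.4% of genes. The same 5 genes were highest in replicate 3, and Ednrb and Ece1 lowest there, after median-of-ratios scaling and after rescaling without ribosomal protein genes, while Ece1 was then highest in replicate 1. The shares of all genes moved with the scaling: 31.2% were highest and 36.7% lowest in replicate 3 after median-of-ratios scaling, and 37.2% and 27.3% without ribosomal protein genes. Highest in replicate 1, as Ece1 then was, were 41.1% of genes after median-of-ratios scaling and 22.6% without ribosomal protein genes. Nos2 was also lowest in replicate 3 after median-of-ratios scaling. Median-of-ratios scaling moved all genes by 0.15 in replicate 1 and by -0.08 and -0.09 in replicates 2 and 3 (log2).

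**Figure D3:**
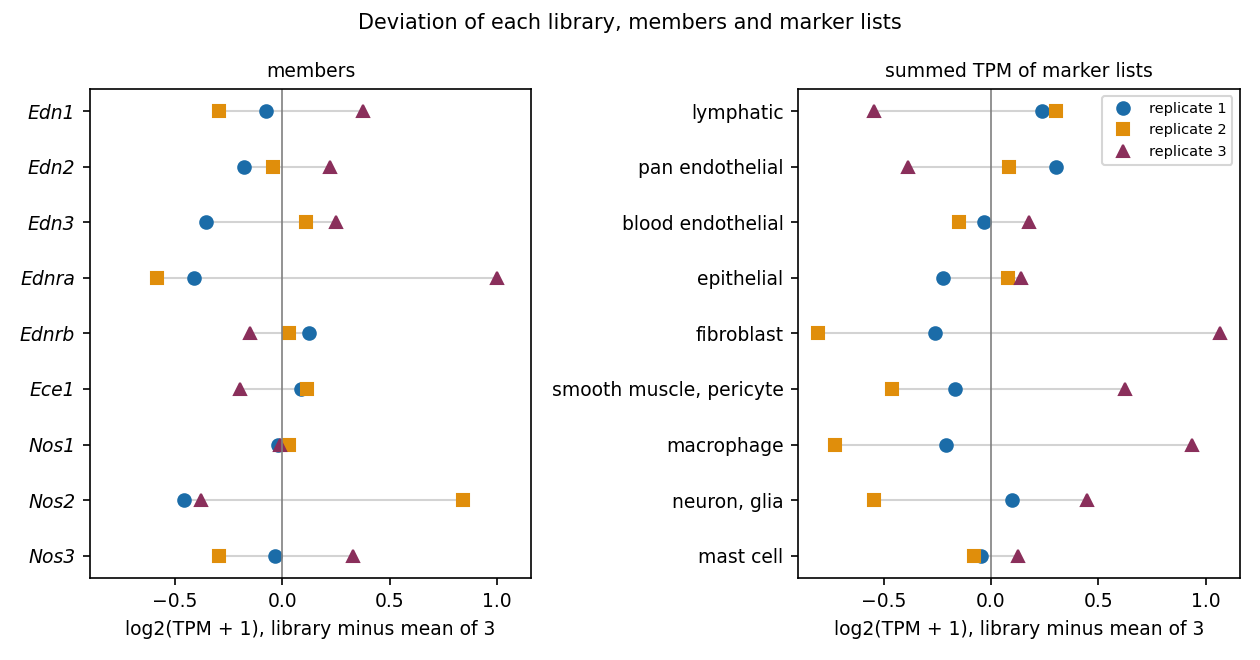
Deviation of log2(TPM + 1) in each library from the mean of 3, for the 9 genes (left) and for the summed TPM of 9 marker lists (right). Ednra and the fibroblast, smooth muscle and macrophage sums lie farthest right in replicate 3, at 0.998 for Ednra and 1.07 for fibroblast markers. Left of 0 there lie Nos2 (-0.38), Ece1 (-0.20), Ednrb (-0.15) and Nos1 (-0.011), and the lymphatic and general endothelial sums.

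To show which listed genes ran most nearly alike, the distance between deviations over the 3 libraries was taken from each member to the 128 marker and pathway genes of mean TPM 1 or more. With 3 libraries many genes share a pattern, so the share of all 13605 other genes within the same distance is given as a description. The nearest to Ednra was Pdgfra, a gene of fibroblasts, at 1.48, 1.31 and 5.52 TPM, followed by Mrvi1, a substrate of cyclic GMP-dependent kinase in smooth muscle, at 0.975, 0.695 and 3.67 TPM, and Myh11, smooth muscle myosin, at 17.7, 14.6 and 42.9 TPM. Within the distance of Pdgfra lay 0.0588% of all genes. The nearest to Ece1 was Nr2f2, a transcription factor of venous and lymphatic endothelium, at 32.1, 31.7 and 25.1 TPM (0.757% of genes within this distance), then Cdh5 and Nppc.

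The nearest to Ednrb were Aqp1, a water channel gene listed for blood endothelium (1.96%), Pecam1, which encodes the sort marker CD31, and Nr2f2. Nos3 lay nearest to Sox10 (0.0956%), Agt and Actg2, and Edn1 to Sox10 (0.463%), Ace and Des, genes of mixed cell types. Sox10 was itself low, at 1.25, 0.784 and 1.88 TPM. Edn2 lay nearest to Cnn1 (0.625%), Kit and Hsp90aa1, and Edn3 to Gnaq (1.61%), Vil1 and Pcsk5. The nearest to Nos2 were Prox1 (1.04%), the epithelial marker Muc2 and Slc7a1. Prox1 lay at a distance of 0.61, where the nearest genes to the other members lay between 0.04 and 0.09.

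The wider pathway was read from 7 lists of 66 genes, of which 65 were found, Gucy1a1 and Gucy1b1 under the older symbols Gucy1a3 and Gucy1b3. Ren1 was not listed by symbol. A TPM of 1 in all 3 libraries was reached by 50 of the 65 (background 53.4%), and 9 stayed below it in all 3. The median gene of the whole table had a mean of 2.48 TPM.

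Of the genes that process or degrade endothelin, 4 of 7 passed. The furin-type protease genes Pcsk7 (47.0 ± 11.05 TPM), Furin (26.5 ± 4.52 TPM) and Pcsk5 (5.07 ± 1.48 TPM) were among them, with Ece2, and the list median was 5.07 TPM. Mme, which encodes neprilysin, a protease that degrades endothelin, stood at 0.215 ± 0.0872 TPM. Kel, whose product processes the precursor of endothelin-3, was listed at 0, 0.0150 and 0 TPM, and Ecel1 was listed at 0 in all 3 libraries. Chymases of mast cells can also cut endothelin precursors. Of 6 mast cell markers, Cma1 and Kit, the second also known from other gut cells, passed the threshold, while Cpa3, Mcpt4 and Tpsb2 stayed under a TPM of 1 in every library and Fcer1a was listed at 0.

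Genes listed for the coupling of endothelin receptors to signals inside the cell passed in 10 of 11 cases (median 15.2 TPM). The G protein gene Gna11 stood at 125 ± 33.1 TPM, Gna13 at 42.0 ± 11.3, Gna12 at 15.2 ± 4.64 and Gnaq at 14.7 ± 3.11 TPM. Among phospholipase C genes, Plcb3 stood at 115 ± 22.6 TPM and Plcb4 at 19.5 ± 1.91 TPM. Plcb2, at 1.56 ± 0.640 TPM, was the lowest of the list. Among genes of inositol trisphosphate receptors, the calcium release channels, Itpr3 stood highest at 24.6 ± 9.70 TPM. All 11 genes of the list were lowest in replicate 1, as were 62.6% of genes of mean TPM 1 or more. After median-of-ratios scaling 10 of the 11 were, all but Itpr1, against 37.6% of genes.

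Genes of arginine metabolism and of the cofactor tetrahydrobiopterin passed in most cases. Of 9 arginine genes 8 passed (median 12.8 TPM), led by Prmt1 (88.3 ± 11.2 TPM), whose product methylates arginine in proteins, a source of the methylated arginine that inhibits the synthases. Asl (42.2 ± 2.56 TPM) and Ass1 (32.4 ± 0.774 TPM), which remake arginine from citrulline, followed. Ddah1 (29.5 ± 4.21 TPM) and Ddah2 (12.8 ± 3.595 TPM), which break the inhibitor down, came next, and the transporter gene Slc7a2 was lowest at 0.608 ± 0.344 TPM. The arginase genes Arg1 (2.60 ± 0.604 TPM) and Arg2 (7.41 ± 0.333 TPM) are also in the count, which thus covers more than supply. All 7 cofactor genes passed (median 67.1 TPM). Spr (146 ± 3.27 TPM), Qdpr (144 ± 5.29 TPM), Pcbd1 (79.1 ± 2.24 TPM) and Pts (67.1 ± 2.33 TPM) stood above Gch1 (14.8 ± 2.55 TPM), the rate-limiting enzyme of its synthesis.

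Partners that bind the synthases were abundant, and 10 of 11 passed (median 226 TPM). Hsp90ab1 stood at 1121 ± 54.0 TPM, Calm2 at 624 ± 25.4, Calm3 at 298 ± 29.5 and Hsp90aa1 at 226 ± 20.9 TPM. Cav1, whose product caveolin-1 holds endothelial synthase inactive, was measured at 257, 267 and 177 TPM, lowest in replicate 3. Dynll1 (139 ± 2.68 TPM), Akt1 (125 ± 15.9 TPM), Nosip (41.9 ± 1.66 TPM) and Nostrin (30.1 ± 3.61 TPM), a trafficking partner of the endothelial enzyme, followed. Nos1ap, the adaptor of the neuronal synthase, was lowest at 1.36 ± 0.664 TPM.

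The receptor for nitric oxide was present as both of its main subunits. Gucy1a3 (chromosome 3, 82092427 to 82145946) was measured at 47.7, 50.9 and 29.8 TPM in replicates 1, 2 and 3, and Gucy1b3 (chromosome 3, 82032004 to 82074711) at 44.8, 52.3 and 30.4 TPM. The ratio of Gucy1a3 to Gucy1b3, chosen after their values were seen, was 1.06, 0.973 and 0.981, while both were lowest in replicate 3, at 0.605 and 0.626 of the mean of the other libraries. The lymphatic markers summed to 0.568 of that mean in replicate 3, the general endothelial markers to 0.667 and the smooth muscle and pericyte markers to 1.91. Of the last list, 8 of 9 were highest there, against 41.3% of genes of mean TPM 1 or more. Its gene Kcnj8 was lowest there, at 10.7, 11.3 and 6.67 TPM in replicates 1, 2 and 3. The part of these cell types in the cyclase values was not tested. Downstream of the cyclase, Vasp (236 ± 41.5 TPM) was the highest of the list and Pde5a, which breaks down cyclic GMP, stood at 17.9 ± 6.24 TPM. For the kinases that cyclic GMP activates, Prkg2, the form known from gut epithelium, stood at 9.09 ± 2.11 TPM, and Prkg1, the form known from smooth muscle, was the lowest of the list at 0.732 ± 0.192 TPM. Of the 8 genes 6 passed (median 13.5 TPM).

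Other peptide systems of vessel tone were lower, and 5 of 12 genes passed (median 1.16 TPM). Ace, which encodes angiotensin-converting enzyme of endothelium and gut epithelium, stood at 22.0 ± 6.86 TPM and Npr2, the receptor gene for C-type natriuretic peptide, at 11.4 ± 2.70 TPM. Npr1 (9.20 ± 0.895 TPM), a receptor gene for natriuretic peptides, and Agt (7.95 ± 1.94 TPM), which encodes the precursor of angiotensin, passed too. Nppb was listed at 0 in all 3 libraries.

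**Figure D4:**
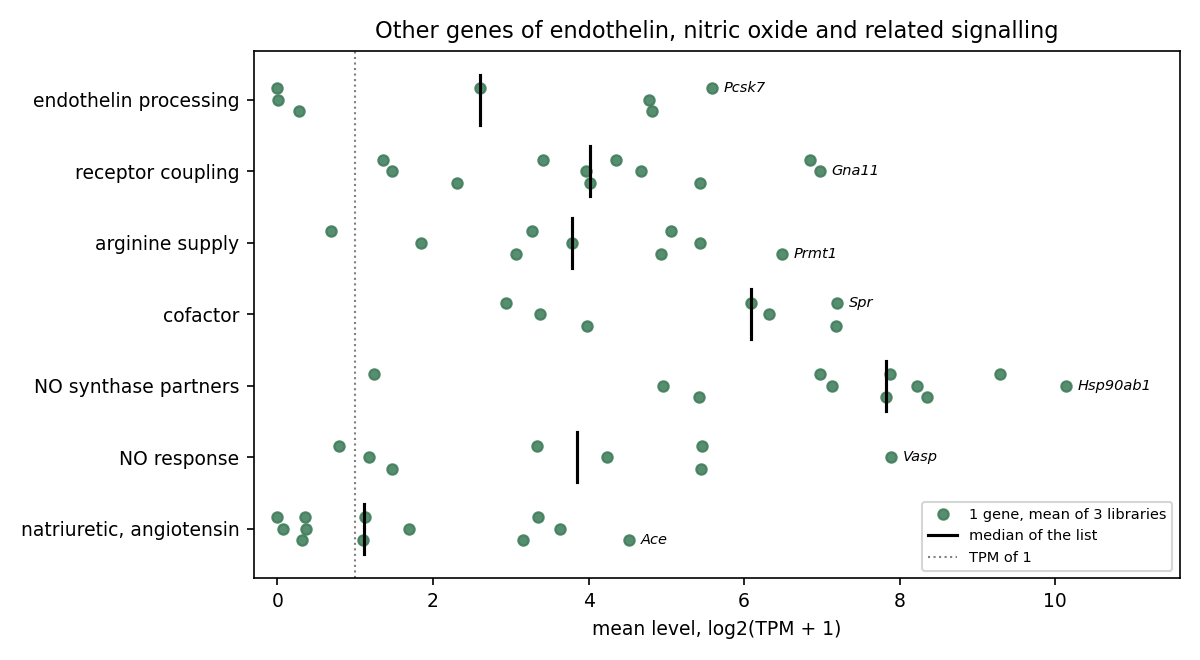
Mean level over 3 libraries, as log2(TPM + 1), of 65 pathway genes in 7 lists, with a bar at the median of each list and the highest gene named. Synthase partners and cofactor genes lie to the right, with medians of 226 and 67.1 TPM, and natriuretic and angiotensin genes to the left, with a median of 1.16 TPM.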

How the data were processed

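RNA-seq of 3 libraries of sorted lymphatic endothelial cells was analysed from 1 table per library. The deposited values are TPM per the file headers, summing to 999939, 999907 and 999896. The submitters' processing notes name mm10, Cell Ranger 6.0.1 and HTSeq; how TPM was computed, the annotation and strand use are not given in the sources used here. All 9 members matched RefSeq GRCm38.p6 by Entrez ID, with the same symbol; gene coordinates are from there, 1-based. Members and lists were chosen with earlier results of these data known. Differences are of log2(TPM + 1) within a library and understate those of low genes; they are given as means ± SD (n = 3) and tested by exact sign-flip permutation, two-sided.

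Named were all 9 members and, of each pathway list, genes of mean TPM 10 or more, the highest and the lowest; further genes in counts of 5 or fewer, and genes below these limits, were chosen after their values were seen. Some genes named by the rule are not reported here. A TPM of 1 in all 3 libraries was the call rule. Fragments were estimated for members with 1 RefSeq transcript, from steps in 6109 single-transcript genes of over 1000 bases. TPM times effective length of low genes lay within 0.15 of a whole step in 66.9%, 66.7% and 70.0% of cases. That width alone gives 30% for a step fixed in advance. Step size and effective length were fitted to these same values, so the shares are no independent check. No counting intervals were made. The steps were tested on simulated data. Alternatives were a pseudocount of 0.1, thresholds of 0.5, 5 or the mean TPM, percentile 90, no filter, 2 scalings and leaving out each replicate. Python 3.11.15, numpy 2.4.6, pandas 2.3.3, Biopython 1.88 and matplotlib 3.10.9 were used.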

Additional observations from a re-analysis of the deposited data

How the results depend on the processing

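No paired comparison of conditions was possible because the series holds 1 group, and the only pairing was of genes within a library. Of 259 recomputed values, 249 lay within the limits set for a change. This count does not measure stability, because many of the values could hardly cross those limits. The 48 recomputed differences could do so only by changing sign, and Nos3 minus Nos1 counted as unchanged at 4.92 against 2.54 (log2). Mean levels were judged against the SD of the 3 libraries, and leaving out 1 replicate cannot move a mean that far. After median-of-ratios scaling 3 small deviations changed sign: Edn1 in replicate 1 (0.06, against -0.08), Ednrb in replicate 2 (-0.04, against 0.03) and Nos3 in replicate 1 (0.10, against -0.03). Without ribosomal protein genes that of Nos3 in replicate 1 was 0.0007. Rescaling without ribosomal protein genes raised every level, to 21.4 TPM for Edn2, 7.84 for Ednrb and 181 for Ece1. With a pseudocount of 0.1, the deviations of Nos1 were -0.12, 0.19 and -0.066 in replicates 1, 2 and 3. Members called variable numbered 2 with percentile 90 (Ednra and Nos2), and between 1 and 3 when 1 replicate was left out: 3 without replicate 1 (Edn1, Ednra and Nos2), 1 without replicate 2 (Ednra) and 1 without replicate 3 (Nos2). Members at the TPM threshold numbered 8 at 0.5, 4 at 5, 8 by the mean and 8 without ribosomal protein genes, against 6. The 8 differences kept their sign under every alternative run. Nos3 minus Nos2 ranged from 0.43 to 1.35 and Nos3 minus Nos1 from 2.37 to 4.92 (log2). No p below 0.25 is possible with 3 libraries, nor below 0.5 with 2, so the tests say nothing of stability.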
